A study of Mus musculus with 3 samples.

Results

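The Toll-like receptors and their adaptors were examined in leukocytes of the mouse lung before and after transplantation. The genes were chosen by name: Tlr2, Tlr3, Tlr4, Tlr7, Tlr9 and Tlr13, the coreceptors Cd14 and Ly96, and the adaptors Myd88 and Ticam1. They are 10 of the 32285 genes that were counted, and all 10 were found by symbol in each library. Single-cell RNA-seq was performed on 3 libraries, 1 per condition, each made from pooled cells of 2 C57BL/6J mice. The naive library came from left lungs of mice without surgery. For the other libraries, a left lung of a CD45.2 donor was held for 60 minutes at 4 °C and 45 minutes at 28 °C, placed into a syngeneic CD45.1 recipient, and reperfused for 2 hours or for 3 days. CD45.1-positive recipient cells were sorted, so donor leukocytes that stayed in the graft, resident macrophages among them, should be missing from the transplant libraries. The same sort is described for the naive mice, although they hold no recipient cells. No group had a genetic change beyond the CD45 allele, and no drug was given.

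Toll-like receptors are innate sensors of microbial and self-derived danger signals. TLR2 and TLR4 sit at the cell surface, where TLR4 binds bacterial lipopolysaccharide through MD-2, the product of Ly96, with CD14 handing over the ligand. TLR3, TLR7, TLR9 and TLR13 sense nucleic acids in endosomes. MyD88 carries the signal of all of these receptors except TLR3, whereas TRIF, the product of Ticam1, serves TLR3 and internalised TLR4. Which leukocytes of an injured lung carry these parts is the question that the levels below address.

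The deposited cell calls numbered 2921 in the naive, 10328 in the 2-hour and 9016 in the 3-day library, of which 2422, 10283 and 8324 passed the cell filters. Depth was uneven. The median cell held 7298.5 transcript molecules (unique molecular identifiers, UMIs) in the naive library, 878 after 2 hours and 5716.5 after 3 days. Cells were grouped by clustering and named "-like" by marker genes, which did not include any of the 10 genes. B-, T-, NK-, neutrophil-, monocyte-, macrophage- and dendritic-like cells were analysed, with 5 macrophage-like cells after 2 hours, too few to compare. Clusters that were left unnamed, with 4, 677 and 349 kept cells, are not part of these 7 lineages. Endothelial-like and basophil- or mast-like cells are not part of them either. At 2 hours the 7 lineages held 80% to 91.8% of the UMIs of each of the 10 genes. Any 2 libraries shared at most 23 cell barcodes. The naive file was written by Cell Ranger 7.1.0 and both transplant files by Cell Ranger 6.0.0, so a difference from naive cannot be told apart from a difference in counting. Because the 2 versions may treat intronic reads differently, the median of all genes of like intron length is given beside some calls. Nearly every cluster held cells of 1 library, so a lineage is compared across different clusters.

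Levels are given as CPM, the UMIs of a gene for each 1000000 UMIs in the cells of 1 lineage and library. With 1 library per condition no test between conditions was possible. The 95% intervals in brackets are exact, and they cover counting error only. A gene was called higher or lower when its ratio passed 2-fold with the interval on one side of 0, among genes with at least 20 UMIs over both libraries.

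**Figure D1:**
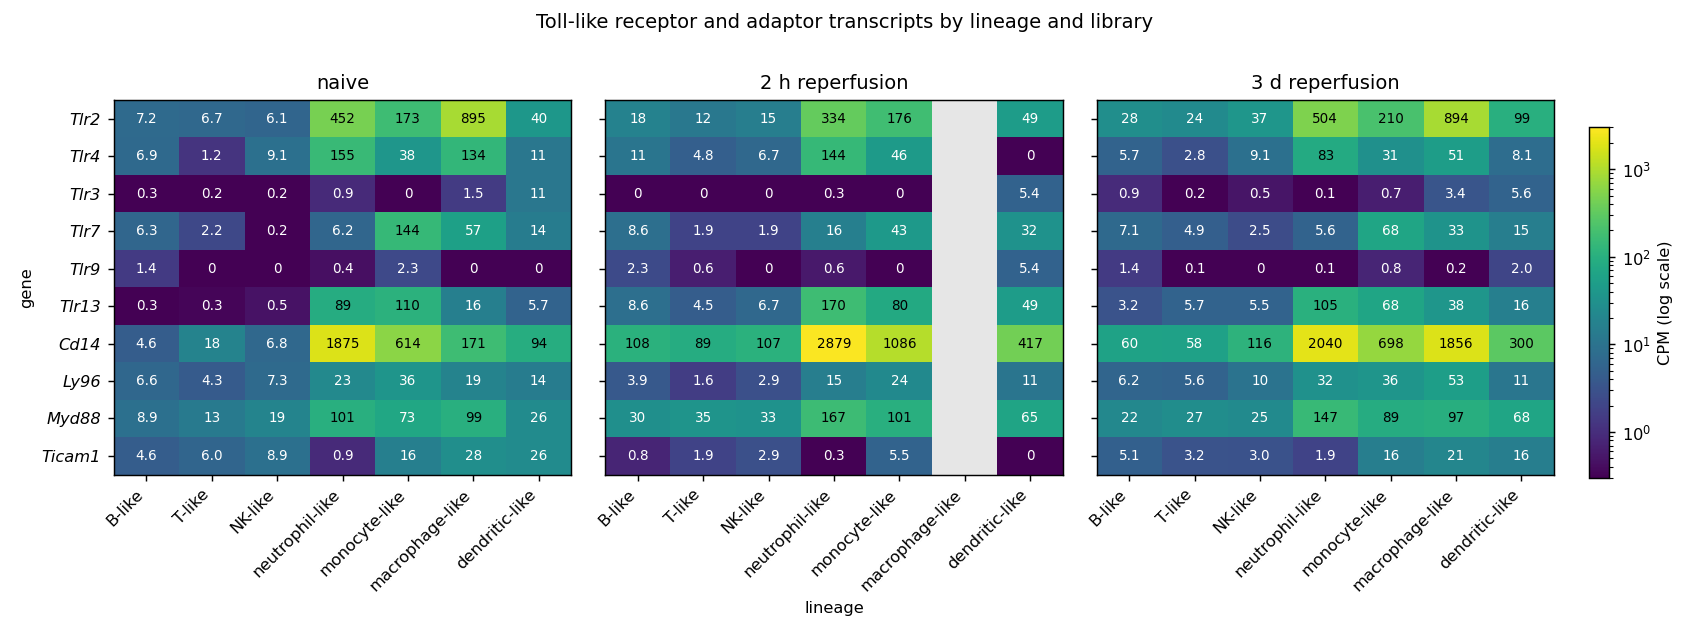
Level of each gene (rows) in 7 lineages (columns) of the naive, 2-hour and 3-day library, as CPM on a log color scale with the value printed in each cell. Grey marks the 5 macrophage-like cells after 2 hours, which were not compared. Cd14 reached 2879 CPM in neutrophil-like cells after 2 hours, and Tlr3 and Tlr9 stayed under 12 CPM in each lineage that was compared.

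Tlr2 was a myeloid transcript in each library. Tlr2 encodes the receptor for bacterial lipoproteins, which pairs with TLR1 or TLR6. In macrophage-like cells it stood at 895 CPM [854, 937] in the naive and 894 CPM [875, 913] in the 3-day library, with a log2 ratio of -0.00 [-0.07, 0.07]. Under 11 other ways of processing this ratio ran from -0.03 to 0.65. The cell filters kept 3257 of the 8476 Tlr2 UMIs of the naive library. Neutrophil-like cells held 452, 334 and 504 CPM in the naive, 2-hour and 3-day library. Monocyte-like cells held 173, 176 and 210 CPM, and no call was made in either lineage. The order macrophage-, neutrophil-, monocyte-, dendritic-like held in the naive library with each step beyond counting error. The 3 lymphocyte lineages came last at 6.09 to 7.15 CPM, and there no neighbour differed beyond counting error. Dendritic-like cells held 39.8, 48.7 and 99.1 CPM, and the 3-day level was called higher than naive (1.32 [0.54, 2.21]), on 14 UMIs in 22 naive cells.

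The Tlr2 gene, Ensembl ENSMUSG00000027995, lies at chr3:83836272-83841767 on the minus strand of GRCm38. Shown for Tlr2 and Myd88 are 30 bases of RefSeq promoter sequence with a motif match (GRCm38.p6, minus strand, 5′ to 3′). The capitals mark the match. For Tlr2, at chr3:83841769-83841798, it is an NF-κB type motif, 172 to 163 bases before the RefSeq start and just upstream of the annotated gene. For Myd88, at chr9:119340044-119340073, it is an interferon-stimulated response element, 40 to 31 bases before the RefSeq start and inside the longer gene span of the annotation.
Tlr2: ttctctttaggacacctgGGGAATTCCCac
Myd88: gggcggagcttctcgGAAAGCGAAAgaagg
Tlr3 also held a match to the first motif. Both strands of the 250 bases before the start were searched. Of the 10 genes, 6 had such a window, in a count that left out Cd14. Of 32851 promoters of that length, 4.11% held the first motif and 2.98% the second. The motif GAGGAAGT, bound by PU.1, was present in 2.44% and was not found in the 6 windows. A match describes the letters and not a bound site.

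Tlr4 was carried by neutrophil-like cells in each library and by naive macrophage-like cells. In neutrophil-like cells it stood at 155 CPM [139, 172] in the naive library, 144 [132, 158] after 2 hours and 82.9 [77.5, 88.7] after 3 days. The 3-day level was below the 2-hour level by a log2 ratio of -0.80 [-0.96, -0.64], short of the 2-fold that a call needs. Naive macrophage-like cells held 134 CPM, which did not differ from neutrophil-like cells beyond counting error (log2 0.20 [-0.03, 0.44]). In macrophage-like cells of the 3-day library Tlr4 stood at 51.1 CPM, called lower than in naive at -1.39 [-1.61, -1.17]. Those cells are not the same kind: the naive ones were led by alveolar markers, and the 3-day ones by Arg1 or by C1q markers. Tlr4 has 97.145 kb of intron, and genes with 50 to 100 kb of intron had a median of -0.67 in this comparison. With each cell named one by one the value was -0.88, and with each cell thinned to 500 UMIs it was 0.22. Monocyte-like cells held 37.5, 45.6 and 30.9 CPM, with no call.

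Tlr4 in B-like cells was low and rested on few molecules. B-like cells held 24 UMIs in 553 cells in the naive library (6.87 CPM [4.40, 10.2]), 14 in 1421 cells after 2 hours (10.9 [5.95, 18.3]) and 60 in 1871 cells after 3 days (5.69 [4.34, 7.32]). The intervals of the 3 libraries overlap, and no contrast was called. The 2-hour over naive ratio was 0.66 [-0.40, 1.67] on the log2 scale, where genes with 50 to 100 kb of intron had a median of -1.27, and the 3-day over naive ratio was -0.27 [-0.98, 0.48], with a class median of -0.84. T-like cells of the same libraries held 1.2, 4.81 and 2.85 CPM. B-like cells thus exceeded T-like cells 5.72-fold (log2 2.52 [1.26, 3.98]) in the naive library, 2.26-fold after 2 hours (1.18 [0.02, 2.33]) and 2.00-fold after 3 days (0.997 [0.32, 1.71]). NK-like cells, at 9.13, 6.71 and 9.07 CPM, did not differ from B-like cells beyond counting error in any library.

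Cd14, the lipopolysaccharide-binding coreceptor, had the largest called ratio among the 10 genes, 4.56 in B-like cells at 2 hours over naive. That ratio ran from 1.72 to 5.63 under 11 other ways of processing. T- and NK-like cells were called higher in the same contrast (2.29 and 3.98). Whether the Cd14 of these B-like cells is their own was not tested, and its level is not read as expression. In neutrophil-like cells Cd14 stood at 1875 CPM in the naive, 2879 after 2 hours and 2040 after 3 days, within 2-fold of each other. Monocyte-like cells held 614, 1086 and 698 CPM. Both lineages were highest in the 2-hour library. The summed level of 10 neutrophil markers in monocyte-like cells was also highest there, at 1192, 6750 and 2326 CPM in the naive, 2-hour and 3-day library. The part of neutrophil RNA in the Cd14 of monocyte-like cells was not tested. Macrophage-like cells held 171 CPM [153, 190] in the naive and 1856 CPM [1828, 1884] in the 3-day library, a 10.9-fold difference (log2 3.44 [3.29, 3.60]), which was 1.45 with each cell named one by one and 2.90 after thinning. Genes with up to 2 kb of intron, the class of Cd14, had a median of 0.13 there. Dendritic-like cells went from 93.8 to 417 and 300 CPM, called higher than naive at both times. Ly96 was a low transcript at 15.2 to 53.2 CPM in neutrophil-, monocyte- and macrophage-like cells. It was called higher in macrophage-like cells at 3 days than in naive (53.2 against 18.6 CPM, log2 1.52 [1.04, 2.03]), and in neutrophil-like cells at 3 days than at 2 hours (31.7 against 15.2 CPM, 1.06 [0.64, 1.51]). The first of these was 1.25 with each cell named one by one and 0.10 after thinning.

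The complete lipopolysaccharide receptor was seldom captured in 1 cell. UMIs of all of Tlr4, Ly96 and Cd14 were found in 75 of 2144 neutrophil-like cells after 3 days (3.50%, exact interval 2.76 to 4.37) and in 4 of 4018 after 2 hours (0.0996%). The median depth was 4459.5 and 746 UMIs in these groups, so their order says nothing of the cells. Macrophage-like cells showed all 3 transcripts in 14 of 108 naive and 112 of 805 3-day cells, and monocyte-like cells in 11 of 141 and 121 of 1222. B-like cells showed them in 0 of 553, 1 of 1421 and 1 of 1871. T-like cells, which should lack the complex, showed them in 0 of 577, 0 of 2500 and 0 of 1054. NK-like cells showed them in 1 of 516, 0 of 1028 and 2 of 327. The exact intervals of B- and T-like cells overlapped in each library.

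The endosomal receptors divided by lineage. Tlr7, the sensor of single-stranded RNA, was highest in monocyte-like cells in each library, beyond counting error in the naive and 3-day library but not over dendritic-like cells at 2 hours (42.9 against 32.5 CPM, 0.40 [-0.88, 1.95]). It stood there at 144 CPM [127, 163] in the naive, 42.9 [29.1, 60.9] after 2 hours and 67.6 [63.7, 71.6] after 3 days, called lower than naive at both times (log2 -1.75 [-2.34, -1.21] and -1.10 [-1.29, -0.89]). The naive level lay above both later intervals. Tlr7 has 21.548 kb of intron, and genes with 10 to 50 kb of intron had medians of -0.33 and 0.00 in these 2 contrasts. The cells behind the 3 values were led by nonclassical and classical markers together in the naive and 2-hour library, while the 3-day cells were 770 classical-like and 452 nonclassical-like cells. Neutrophil-like cells held 6.23 CPM, then 16.0 and 5.61, called higher at 2 hours than naive (1.36 [0.50, 2.32]) and lower at 3 days than at 2 hours (-1.52 [-2.07, -0.96]). After thinning, the first of these calls became -0.25. The second ran from -2.30 to -0.22 under 11 other ways of processing.

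Tlr13, a mouse sensor of bacterial ribosomal RNA, was led by monocyte-like cells in the naive library (110 CPM) and by neutrophil-like cells at 2 hours (170 CPM) and 3 days (105 CPM). Neutrophil-like cells stood at 89.1 CPM in the naive library, and the 2-hour ratio of 0.93 [0.70, 1.17] stayed short of 2-fold. Macrophage-like cells held 16.2 CPM in the naive and 38.2 in the 3-day library (1.24 [0.72, 1.80]), a call that turned to -0.24 with each cell named one by one. Dendritic-like cells held 9 UMIs at 2 hours (48.7 CPM) and 32 at 3 days (16.2 CPM), called lower at 3 days.

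Tlr3 and Tlr9 were close to the limit of detection. Tlr3, the sensor of double-stranded RNA, stood at 11.4, 5.42 and 5.56 CPM in dendritic-like cells, on 4, 1 and 11 UMIs, and exceeded the next lineage beyond counting error in the naive library only. Macrophage-like cells held 3.42 CPM after 3 days, and B-like cells 0.286, 0 and 0.948 CPM. The count of 0 after 2 hours allows up to 2.33 CPM by a limit of 3 counts, and has an exact upper bound of 2.87. Tlr9, the sensor of CpG DNA, was counted 10, 10 and 36 times in all kept cells of the 3 libraries. B-like cells held 5, 3 and 15 of these UMIs. At 3 days they exceeded T-like cells, which held 1 UMI, by a log2 ratio of 3.75 [1.05, 9.15].

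Myd88 was found in each lineage of each library that was compared. It stood at 101, 167 and 147 CPM in neutrophil-like cells, at 73.4, 101 and 89.0 in monocyte-like cells and at 98.9 and 97.5 in naive and 3-day macrophage-like cells. None of these contrasts was called. In T-like cells it rose from 13.4 CPM [10.6, 16.7] in the naive library to 35.3 [29, 42.5] after 2 hours and 27.4 [24.2, 31.0] after 3 days, called at both times (1.40 [0.97, 1.84] and 1.04 [0.67, 1.42]). In B-like cells it went from 8.87 CPM to 29.5 and 21.98, also called at both times (1.74 [1.01, 2.47] and 1.31 [0.77, 1.90]). NK-like cells held 18.96, 32.6 and 24.7 CPM with no call. Genes with 2 to 10 kb of intron, the class of Myd88, had medians of 0.13 and 0.05 in B- and T-like cells at 2 hours.

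Ticam1 went the other way at 2 hours, on small counts. Monocyte-like cells held 15.9 CPM in the naive library (28 UMIs), 5.53 after 2 hours (4 UMIs) and 15.6 after 3 days (262 UMIs), called lower at 2 hours (-1.53 [-3.50, -0.01]) and higher from 2 hours to 3 days (1.499 [0.13, 3.39]). T-like cells held 6.00, 1.92 and 3.17 CPM, called lower at 2 hours (-1.64 [-3.18, -0.38]). Among all genes, 25.6% in monocyte-like and 29.1% in T-like cells were lower at 2 hours than in naive. NK-like cells held 8.89, 2.87 and 3.02 CPM, on 38, 3 and 6 UMIs. They had no call at 2 hours (-1.63 [-3.97, 0.03]) and were called lower at 3 days than in naive (-1.56 [-3.09, -0.30]). B-like cells held 16 UMIs (4.58 CPM), 1 UMI (0.777 CPM) and 54 UMIs (5.12 CPM). The rise from 2 hours to 3 days was called at 2.72 [0.18, 8.05], while the pair of naive and 2 hours fell short of 20 UMIs. Neutrophil-like cells held 2, 1 and 20 UMIs of Ticam1, under 2 CPM in each library, called higher at 3 days than at 2 hours (2.76 [0.11, 8.13]). Macrophage-like cells held 28.4 CPM in the naive and 20.7 in the 3-day library, not beyond counting error above dendritic-like cells (0.15 [-0.87, 1.35] and 0.403 [-0.149, 1.0001]).

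**Figure D2:**
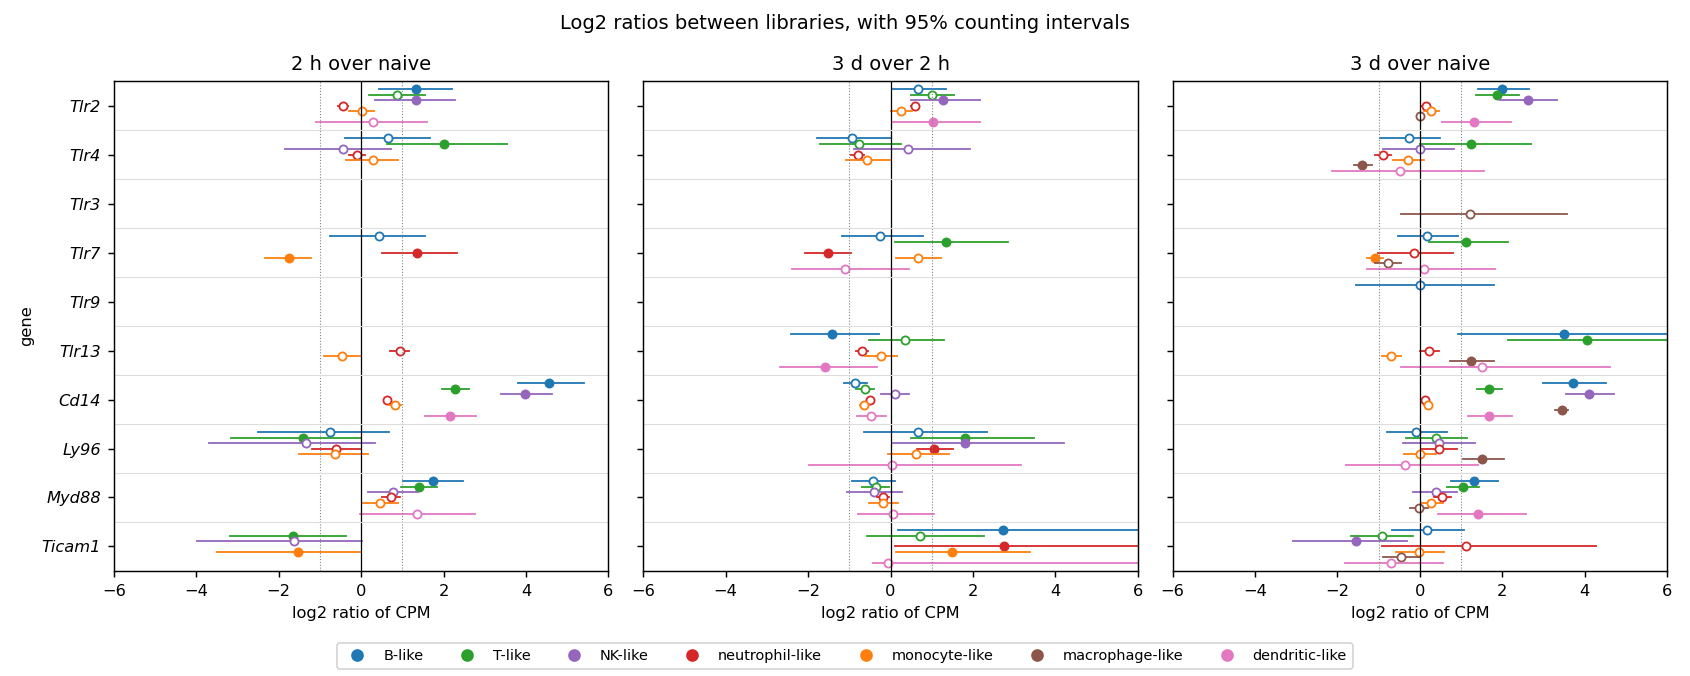
Log2 ratios of CPM between libraries for each gene (rows) and lineage (colors), with exact 95% counting intervals. Filled points were called, dotted lines mark 2-fold, only pairs with at least 20 UMIs are drawn, and intervals past 6 run off the axis. The Cd14 points of lymphocyte-like cells lie far to the right in both contrasts with naive, up to 4.56 for B-like cells at 2 hours, while those of neutrophil- and monocyte-like cells stay within 2-fold.

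Over all genes and lineages, 36 of 60 pairs could be compared between 2 hours and naive. Of these 10 were higher and 4 lower, against 8.44% higher and 27.1% lower among all genes compared in the same lineages. The median log2 ratio was 0.54 for the 36 pairs and between -0.51 and -0.19 for all genes, depending on the lineage. Between 3 days and 2 hours, 9 of 44 pairs were higher and 3 lower, against 12.5% and 6.73% of all genes. Here all genes had medians of 0.17 to 0.28. Between 3 days and naive, 18 of 56 pairs were higher and 3 lower, against 7.3% and 18.5% of all genes. The contrasts share libraries and are not independent of each other. Setting the median of all genes to 0 gave 16 higher and 1 lower pair between 2 hours and naive, and 2 higher and 6 lower between 3 days and 2 hours. Of the 10 higher pairs at 2 hours, 8 lay in B-, T- or NK-like cells, as did 12 of the 18 between 3 days and naive. Among all genes of these 3 lineages, 7.85% to 8.32% were higher in the first contrast and 5.65% to 6.26% in the second.

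Cd14 and transcripts of neutrophils were both higher in lymphocyte-like cells after 2 hours and 3 days than in naive. Not every call had that direction: Ly96 and Ticam1 were called lower in T-like cells at 2 hours (-1.42 and -1.64). B-like cells held 4.58 CPM of Cd14 in the naive library, 108 after 2 hours and 59.7 after 3 days. T-like cells held 18.2, 88.9 and 58.0, and NK-like cells 6.79, 107 and 116 CPM. T cells should lack Cd14, and B- and T-like cells did not differ at 2 hours (0.28 [-0.02, 0.58]) or at 3 days (0.04 [-0.13, 0.21]). In the same cells the summed level of 10 neutrophil markers went from 233 to 2451 and 1453 CPM in B-like, from 722 to 1880 and 1481 in T-like and from 385 to 1999 and 4259 in NK-like cells, against 58647 to 159316 in neutrophil-like cells. None of the 10 markers was at 0 in these lymphocyte groups, apart from 1 in B-like cells after 2 hours. The part of neutrophil RNA in the Cd14 calls was not tested. Whether the Cd14 of B-like cells at 2 hours and 3 days is their own was not tested either, and its level is not read as expression. Fewer transcripts per cell and fewer cells with the transcript cannot be told apart in these sums.

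The proportion of members to Cd14 within a library was set beside that of neutrophil-like cells and, for some, of monocyte- and macrophage-like cells. After 2 hours, neutrophil-like cells held 11.6 UMIs of Tlr2, 5.02 of Tlr4, 5.91 of Tlr13 and 5.79 of Myd88 for each 100 UMIs of Cd14. B-like cells held 16.5, 10.1, 7.91 and 27.3, and T-like cells 13.7, 5.42, 5.05 and 39.7. Monocyte-like cells held 16.2, 4.20, 7.39 and 9.30. Myd88 thus stood further from the neutrophil proportion than Tlr2 and Tlr13 did in B- and T-like cells at 2 hours. Myd88 was not the only member above it. Ly96 was at 3.60 in B-like and 1.81 in T-like cells against 0.527 in neutrophil-like cells, on 5 UMIs in each lymphocyte lineage. What sets these proportions was not tested. In the other libraries Tlr2 stood further from the neutrophil proportion than Tlr2 at 2 hours. After 3 days it was 47.6 in B-like and 42.0 in T-like cells against 24.7 in neutrophil-like cells. Monocyte-like cells then held 30.1 and macrophage-like cells 48.2, so Tlr2 did not set lymphocyte-like cells apart from all myeloid lineages. In the naive library Tlr2 was 156 and 36.8 against 24.1, where B-like cells held 16 Cd14 UMIs. Myd88 was 36.8 in B-like and 47.3 in T-like cells against 7.22 after 3 days, with 12.7 in monocyte-like and 5.25 in macrophage-like cells. In the naive library Myd88 was 194 and 73.6 against 5.39. Tlr13 after 3 days was 5.40 in B-like and 9.82 in T-like cells, against 5.12 in neutrophil-like, 9.71 in monocyte-like and 2.06 in macrophage-like cells. In the naive library the proportion of Tlr4 was 150 in B-like and 134 in NK-like cells, against 6.60 in T-like and 8.24 in neutrophil-like cells. After 3 days it was 9.52 in B-like, 4.91 in T-like and 4.07 in neutrophil-like cells.

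Leaving out lymphocyte-like cells with at least 2 UMIs of the myeloid genes Lyz2, Fcer1g, Tyrobp, Csf3r and Cst3 together lowered some members and left others. Such a minimum removes more of the deeper cells: 258 of 553 naive, 114 of 1421 2-hour and 1364 of 1871 3-day B-like cells, with medians of 6191, 755 and 5036 UMIs, were left out. The removal took the smallest share of cells at 2 hours, and levels after it are best read between lineages of 1 library. Its effect on Cd14 was not smallest there. Cd14 UMIs went from 139 to 20 in B-like and from 277 to 31 in T-like cells at 2 hours. In B-like cells they went from 16 to 9 in the naive and from 630 to 85 in the 3-day library. This left 295, 1307 and 507 B-like and 349, 2330 and 314 T-like cells, but 8, 232 and 1 NK-like cells, since NK cells use Fcer1g and Tyrobp themselves. Cd14 in B-like cells was then 5.49, 18.0 and 34.6 CPM, and Tlr2 6.71, 5.41 and 15.1. Tlr2 in T-like cells after 2 hours was 0.726 CPM. Myd88 was 7.32, 19.8 and 21.6 CPM in B-like and 11.6, 31.2 and 26.2 in T-like cells. Tlr4 in B-like cells was 4.88 CPM [2.11, 9.62], 6.31 [2.54, 13.01] and 4.48 [2.24, 8.02], against 0.942, 1.09 and 0.409 CPM in T-like cells, on 8, 7 and 11 against 3, 3 and 1 UMIs. Tlr7 in B-like cells was 7.32, 8.12 and 7.33 CPM, close to the 6.29, 8.55 and 7.11 CPM of all B-like cells. Tlr7 in T-like cells went from 2.23, 1.92 and 4.85 CPM in all cells to 1.26, 1.82 and 2.45 CPM, on 4, 5 and 6 UMIs.

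**Figure D3:**
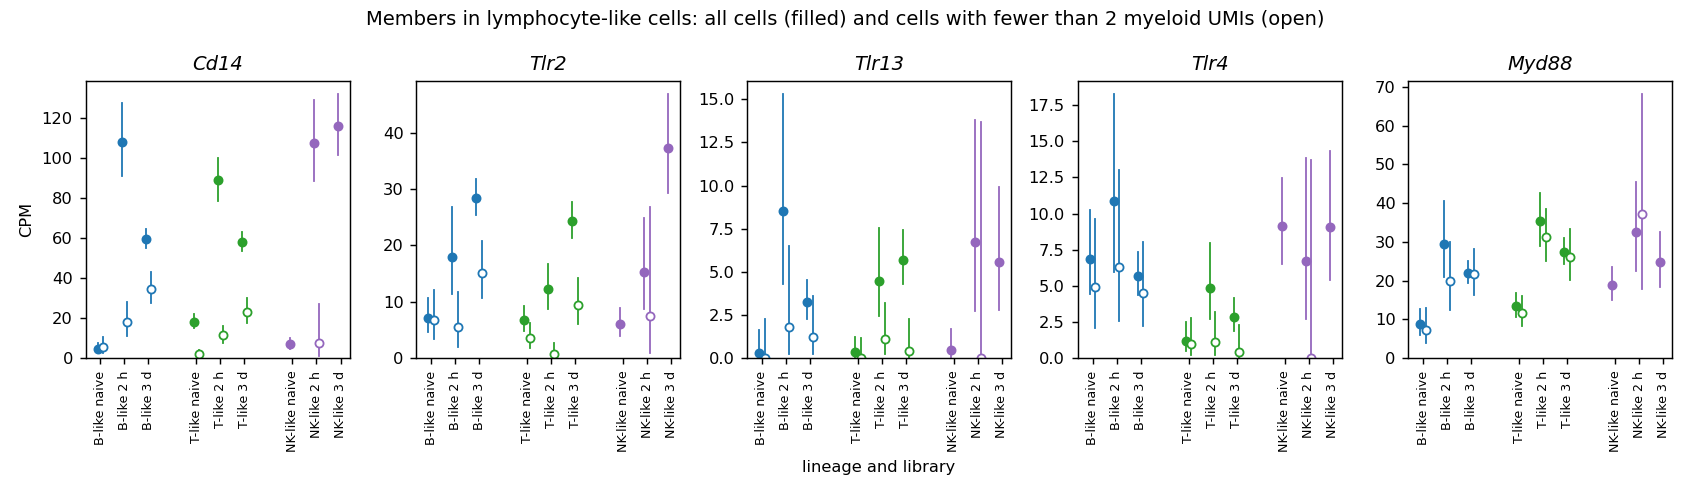
CPM of 5 genes in B-, T- and NK-like cells of the 3 libraries, with exact 95% counting intervals, for all cells (filled) and without cells holding at least 2 UMIs of 5 myeloid genes (open). Open points are absent where under 20 cells were left. In B-like cells after 2 hours the open points of Cd14, Tlr2, Tlr13 and Myd88 lie at 18.0, 5.41, 1.80 and 19.8 CPM. The filled points there lie at 108, 17.9, 8.55 and 29.5 CPM. In T-like cells after 2 hours Cd14 lies at 11.3 CPM beside 88.9, and Myd88 at 31.2 CPM beside 35.3.

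Detection per cell was also set by depth. Tlr4 UMIs were found in 3.797%, 0.915% and 2.99% of B-like cells and in 0.693%, 0.520% and 1.90% of T-like cells. With each cell thinned to 500 UMIs these shares were 0%, 0.440% and 0.160% in B-like and 0%, 0.121% and 0% in T-like cells, where 0 of 553 naive B-like cells allows, by a limit of 3 counts, up to 0.542% of cells with a UMI at that depth. In neutrophil-like cells, Tlr4 was found in 41.9%, 10.7% and 28.3% of cells, and in 8.01%, 6.82% and 4.71% after thinning. Cd14 was found in 84.5%, 73.0% and 87.1% of neutrophil-like cells, and in 52.2%, 64.4% and 50.8% after thinning. Thinning left out 325 of 4018 neutrophil-like, 57 of 1421 B-like, 14 of 2500 T-like, 41 of 1028 NK-like and 3 of 445 monocyte-like cells of the 2-hour library.

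Subsets of myeloid cells differed in single members. These clusters were made from the same transcripts, so the values are a description. After 3 days, 639 macrophage-like cells were led by Arg1 markers and 166 by C1q markers, and the 102 naive ones were alveolar-like. Tlr2 was level across them, at 883, 921 and 916 CPM. Cd14 stood at 1680 CPM in Arg1-like and 2305 in C1q-like cells against 152 in alveolar-like cells, 11.1- and 15.2-fold. Tlr4 stood at 61.5 CPM in Arg1-like, 24.6 in C1q-like and 138 in alveolar-like cells. The Arg1-like over C1q-like ratio, within 1 library, was 1.32 [0.94, 1.72] for Tlr4 and 0.79 [0.55, 1.04] for Myd88, and -0.13 [-0.48, 0.24] for Tlr7.

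Classical-like monocytes after 3 days held 812 CPM of Cd14 against 282 in nonclassical-like ones, a log2 ratio of 1.53 [1.44, 1.62]. Ticam1 followed the same order, at 17.9 and 7.23 CPM (1.31 [0.72, 1.95]), as did Tlr4, at 33.4 and 21.7 CPM (0.62 [0.27, 0.99]). Tlr2 differed less in that order, at 217 and 186 CPM (0.22 [0.10, 0.35]). Tlr13 had the opposite order, at 60.5 and 94.6 CPM (-0.64 [-0.83, -0.46]), as did Tlr7, at 64.1 and 80.4 CPM (-0.33 [-0.52, -0.13]). Myd88 and Ly96 did not differ beyond counting error.

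**Figure D4:**
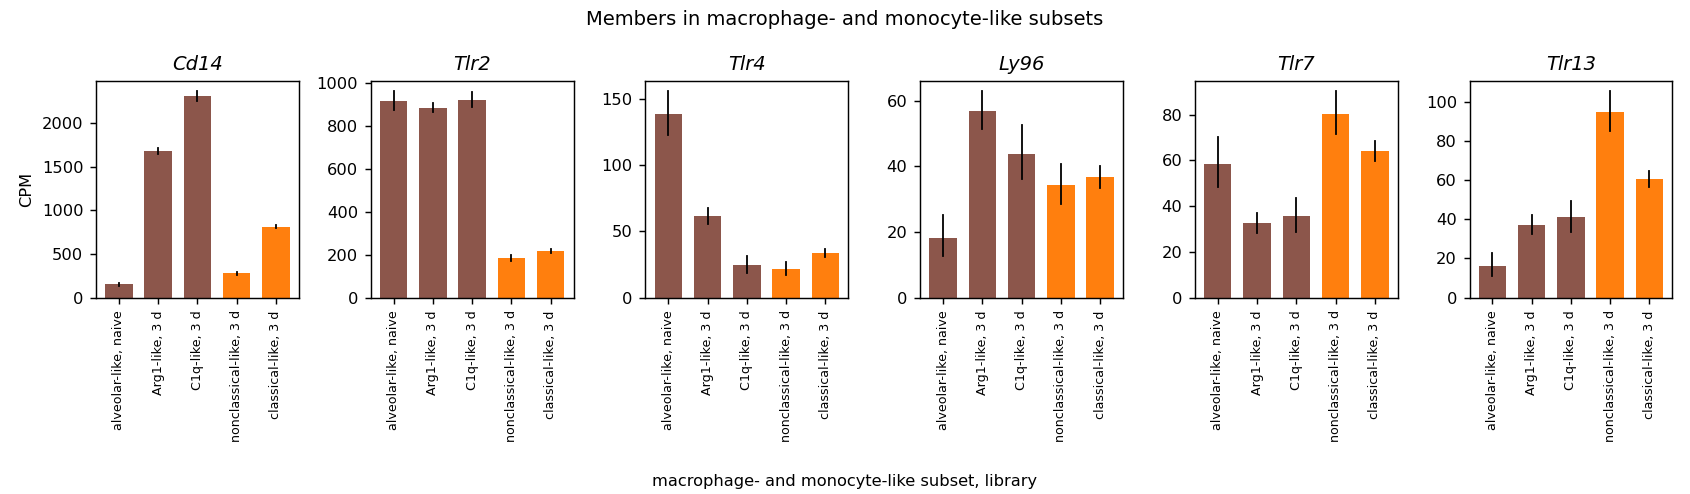
CPM of 6 genes in 3 macrophage-like and 2 monocyte-like subsets, named with their library, as bars from 0 with exact 95% counting intervals. Tlr2 bars are level across the macrophage-like subsets (883 to 921 CPM), while Cd14 is low in alveolar-like cells (152 CPM) and Tlr4 is high there (138 CPM).

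Among dendritic-like cells of the 3-day library, 24 carried more plasmacytoid and 81 more conventional markers. Tlr7 was found at 58.4 CPM in the plasmacytoid-like and 4.83 in the conventional-like cells, on 21 and 7 UMIs (log2 3.59 [2.31, 5.07]). All 11 Tlr3 UMIs of the split cells lay in the conventional-like ones. A count of 0 in the plasmacytoid-like cells allows up to 8.34 CPM there by the same limit of 3 counts, above the 7.60 CPM of the others, so the depth does not show a difference. Cd14 was lower in plasmacytoid-like cells, at 122 against 282 CPM (-1.204 [-1.69, -0.75]). Both main neutrophil-like clusters after 2 hours, of 2918 and 1098 cells, held Tlr2, Tlr4, Tlr7, Tlr13, Cd14, Ly96 and Myd88 at ratios of 0.846 to 1.16. An unnamed cluster of 372 cells held 193 CPM of Tlr4, on 70 UMIs, against 147 in the larger one. That ratio was barely beyond counting error (0.39 [0.003, 0.77]). Tlr13 in the unnamed cluster stood at 107 against 164 CPM (-0.61 [-1.12, -0.13]). After 3 days an unnamed cluster of 258 cells, led by Tnf and Ccl3, held 8.35 CPM of Ticam1 on 9 UMIs. The main neutrophil-like cluster of that library held 1.94 CPM (2.10 [0.79, 3.30]).

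Of 55 other genes of the pathway, 24 of 259 pairs of gene and lineage were higher and 67 lower at 2 hours than in naive, 43 of 287 higher and 15 lower at 3 days than at 2 hours, and 40 of 342 higher and 51 lower at 3 days than in naive. As shares these were 9.27% higher and 25.9% lower, 15% and 5.23%, and 11.7% and 14.9%, beside all-gene shares of 8.44% and 27.1%, 12.5% and 6.73%, and 7.3% and 18.5%. The 3-day against 2-hour contrast is the one in which both files came from the same software. There, against 12.5% higher and 6.73% lower among all genes, the TRIF branch with its interferon regulatory factors had 8 of 48 pairs higher and 0 lower, the remaining adaptors 8 of 22 and 0, and the IKK and NF-κB genes 8 of 30 and 1. The chaperones and accessory proteins had 9 of 40 higher and 1 lower. The IRAK, TRAF and TAK1 complex had 4 of 69 higher and 7 lower, and the negative regulators 5 of 63 in each direction.

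The genes called in at least 3 lineages in that contrast were these. Ikbke, a kinase of the TRIF branch, was higher in B-, T-, NK- and monocyte-like cells (log2 1.34 to 2.37). Nfkb1, a subunit of NF-κB, was higher in B-, T-, NK- and dendritic-like cells (1.01 to 1.28). Ticam2, the bridging adaptor between TLR4 and TRIF, was higher in T-like (3.79, on 42 UMIs against 1), monocyte-like (1.72) and dendritic-like cells (1.94). Unc93b1, which escorts the endosomal receptors, was higher in T-like (1.29), neutrophil-like (1.03) and monocyte-like cells (1.09). Map3k8, the kinase TPL2, was lower in T-, neutrophil-, monocyte- and dendritic-like cells (-1.72 to -1.18). Socs1, a feedback inhibitor, was lower in T-, NK- and monocyte-like cells (-1.58 to -1.40).

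Over the 20 values of lineage and library, on a scale of log2(CPM + 10), the gene most like each member among 6645 candidates was Clec4e for Cd14 (Pearson r = 0.98), Bst1 for Tlr2 (0.97), Lilrb4a for Myd88 (0.97), Ocrl for Ticam1 (0.97), Alox5 for Tlr4 (0.96), Nfe2l2 for Tlr13 (0.95), Clec9a for Tlr3 (0.94), Fcgr1 for Tlr7 (0.92), Pgd for Ly96 (0.92) and Dnase1l3 for Tlr9 (0.87). The next in order were Lilrb4a and Gda for Cd14, Rab32 and Tgm2 for Tlr2, Nlrp3 and Cdc42ep2 for Myd88, Hsd17b4 and Mvd for Ticam1, Alas1 and Lonrf1 for Tlr4, Mir22hg and Lrrc25 for Tlr13, Ccnd1 and Sh3bgr for Tlr3, Ifi207 and Lrp1 for Tlr7, Znhit1 and Gga1 for Ly96, and Rep15 and Spic for Tlr9. For Tlr9 and Tlr3 the r rests on few molecules. The highest Tlr9 value was 5.42 CPM, on 1 UMI, and Tlr3 in dendritic-like cells had 4, 1 and 11 UMIs. The 20 values share 3 libraries and their depths, so r describes these data and carries no p.

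Surface protein was counted with 277 antibody tags in the transplant libraries. The CD14 tag had 0 UMIs in each of the compared lineages, among them neutrophil-like cells with 539398 antibody UMIs at 2 hours and 249115 at 3 days. The CD284 tag, directed at TLR4, had 0 to 6 UMIs per lineage. Its highest count, 6 in neutrophil-like cells at 2 hours, was 11.1 CPM of antibody UMIs, below the median of 154 of 9 isotype controls. No isotype control lay below the CD284 tag in any of these lineages. These tags therefore gave no protein level to set beside the Tlr4 and Cd14 transcripts.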

How the data were processed

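Per the labels, cells were loaded on a 10x Genomics controller, and the submitters' processing notes name Cell Ranger 6, Seurat 4 and mm10. Per the file headers, Cell Ranger 7.1.0 wrote the naive and 6.0.0 the transplant matrices. The labels and the published methods name different chemistry kits, and no source used here says whether intronic reads were counted. The deposited values were raw UMI counts per gene and cell, and counts of 277 antibody tags in the transplant libraries.

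Cells with over 200 and under 6000 genes, under 10% mitochondrial counts and under 25000 UMIs were kept. They were normalized and clustered with Seurat 5.3.0 and sctransform 0.4.2 in R 4.3.3 (30 components, resolution 0.8). The 10 genes and the 55 other pathway genes were left out of the clustering. A cluster was named by the marker list that led it, with at least 3 detected markers. Rules that leading genes be detected in 10% of its cells, that the same list lead in each library with at least 50 of its cells and that lymphoid and myeloid lists not lead together were set after seeing the data. Called doublets were kept and left out in an alternative. Counts were summed per lineage and library with Python 3.11.15, numpy 2.4.6, scipy 1.17.1 and pandas 2.3.3, and shares were recomputed with each cell thinned to 500 UMIs. Rate ratios and shares have exact Poisson and binomial 95% intervals, which cover counting error only. A library without a UMI of a gene was set at a floor of 3 counts in ratios. Lineages of under 20 cells were not compared. No test between conditions was made. The call rule was run on simulated Poisson counts, which hold no spread between mice and no difference in software or stray RNA. That run therefore covers counting error only and says nothing of the calls between these libraries. Positions of genes were read from the GENCODE vM21 annotation of GRCm38.

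The 10 genes, the marker and pathway lists and the rules were chosen with earlier results of these data known. All 10 genes are named throughout, a pathway gene is named when called in 1 direction in at least 3 lineages between 3 days and 2 hours, and each of the 10 genes is given the 3 genes of highest r among those of at least 50 CPM in some lineage. Alternatives were no cell filter, each cell named one by one, each library clustered alone, resolutions of 0.4 and 1.2, doublets or cells of mixed content left out, thinning, another centring and a minimum of 50 UMIs.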

Additional observations from a re-analysis of the deposited data

Results flagged for a closer look

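In 4 cases a gene was called in opposite directions in a pair of lineages under 1 contrast. The difference between the lineages was not tested, since each condition had 1 library. Tlr7 between 2 hours and naive was higher in neutrophil-like (log2 1.36) and lower in monocyte-like cells (-1.75), 3.12 apart, and the first value became -0.25 after thinning. Tlr7 between 3 days and 2 hours was higher in T-like (1.33) and lower in neutrophil-like cells (-1.52), 2.85 apart. The neutrophil-like value ran from -2.30 to -0.22 under 11 other ways of processing. Tlr7 between 3 days and naive was higher in T-like (1.12) and lower in monocyte-like cells (-1.10), 2.22 apart. The T-like Tlr7 levels rested on 13, 6 and 46 UMIs in the naive, 2-hour and 3-day library, and on 4, 5 and 6 without cells of mixed content. Tlr4 between 3 days and naive was higher in T-like (1.25, on 27 against 7 UMIs) and lower in macrophage-like cells (-1.39), 2.64 apart, and the second value became 0.22 after thinning. Without cells of mixed content, T-like Tlr4 was 0.409 CPM (1 UMI) at 3 days and 0.942 CPM (3 UMIs) in naive. Neutrophil markers in T-like cells stood at 722 CPM in naive and 1481 at 3 days, where Tlr4 per 100 Cd14 UMIs was 4.91 beside 4.07 in neutrophil-like cells. The part of neutrophil RNA in this call was not tested.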

How the results depend on the processing

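No paired analysis was possible because each condition had 1 library. Of 47 called ratios, 29 stayed past 2-fold in the same direction under each alternative that gave a value, and 3 changed sign under an alternative: Tlr13 in macrophage-like cells between 3 days and naive was -0.24 with each cell named one by one, and after thinning Tlr7 in neutrophil-like cells between 2 hours and naive was -0.25 and Tlr4 in macrophage-like cells between 3 days and naive was 0.22. An alternative gave a ratio where at least 20 UMIs were left. Of 94 counts recomputed, 68 stayed within 1.5 times. Between 2 hours and naive, the higher pairs (10) became 6 without cells of mixed content, 6 after thinning and 16 with the median of all genes at 0. The lower pairs (4) became 1 with cells named one by one, 2 at resolution 0.4, 2 without cells of mixed content, 0 after thinning, 1 with the median at 0 and 1 with at least 50 UMIs. Between 3 days and 2 hours, the higher pairs (9) became 4 with cells named one by one, 5 at resolution 0.4, 4 without cells of mixed content, 1 after thinning and 2 with the median at 0, and the lower pairs (3) became 7, 1 (resolution 1.2), 0 (thinning), 6 (median at 0) and 1 (at least 50 UMIs). Between 3 days and naive, the higher pairs (18) became 9 without cells of mixed content and 4 after thinning, and the lower pairs (3) became 5 at resolution 1.2 and 0 after thinning. The genes with the same leading lineage in each library numbered 5, and 3 at resolution 0.4, 3 without cells of mixed content and 2 after thinning. Of the 5, only Cd14 led the next lineage beyond counting error in each library. Macrophage-like cells led Tlr2 and Ticam1 in the naive and 3-day library and were not compared at 2 hours, so these genes could not be counted. Keeping only lineages with at least 50 cells in both libraries, chosen after seeing the data, gave 9 and 4, 9 and 3, and 15 and 3 higher and lower pairs. Thinning discards most counts of the deeper libraries, which limits what it can call. With 1 library per condition, no spread between mice enters any interval.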
